A study of Mus musculus with 4 samples.

Results

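The SLAM receptors, their adaptor SAP and the kinase that SAP recruits were followed in CD4 single-positive thymocytes, the thymic T cells that have settled on the CD4 lineage. The gene set comprised the receptors Slamf1, Slamf6, Slamf7, Ly9, Cd48, Cd84 and Cd244a, the adaptor gene Sh2d1a and the Src family kinase gene Fyn. All probe sets that the platform annotation assigns to exactly 1 of these symbols were taken, which gave 16 of the 45101 probe sets on the array and 9 of the 18193 genes named by a single-gene probe set. Slamf1 and Slamf6 were each read by 3 probe sets, Cd84, Cd244a and Fyn by 2, and the other 4 genes by 1. The KO arrays came from B6 mice with the CD4-Cre transgene and floxed Cul3 alleles (CD4 Cre+Cul3fl/fl), and the LM arrays from B6 mice with the same floxed alleles and no Cre (CD4Cre-Cul3fl/fl). Each group had 2 arrays, and the labels give neither the age of the mice nor whether replicates were different animals, so p-values measure a spread between samples that may be technical. The sort took CD4 single-positive cells without surface CD25, without binding of the PBS57-loaded CD1d tetramer that stains NKT cells, and without the gamma delta T cell receptor. CD4-Cre is active in T lineage cells from the double-positive stage, and no arrays of Cre-carrying mice with intact Cul3 were analysed here, so Cul3 removal and Cre itself cannot be told apart.

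SLAM receptors are immunoglobulin superfamily proteins on blood cells. Most of them bind the same receptor on a neighbouring cell, while Cd244a binds Cd48. Tyrosine motifs in the tails of several of them dock the SH2 domain of SAP, and SAP brings in Fyn through the SH3 domain of the kinase. In the mouse thymus, contacts through Slamf1 and Slamf6 between double-positive cells are known for directing NKT cells and other innate-like T cells that express PLZF, a partner of Cul3. In peripheral T cells SAP is needed for lasting contacts of follicular helper cells with B cells, and inherited loss of human SH2D1A causes X-linked lymphoproliferative disease.

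The listed markers of the labelled cells were present on the arrays. All 9 listed CD4 single-positive markers with a named probe set, Cd4, Cd3e and Lef1 among them, were above background on every array. At the threshold 0 of them differed, beside 0.275% of all genes tested. Of the listed double-positive thymocyte markers, Rag1, Cd8a, Cd8b1, Dntt, Cd1d1 and Tcf12 were above background on every array too. Rag2 was above it on both KO arrays and 1 of 2 LM arrays, and Ptcra on none. Levels above background therefore do not single out CD4 single-positive cells here. Background was the signal that only 5% of olfactory and vomeronasal receptor probe sets exceeded on an array, after normalization 98.4 and 77.7 on KO replicates 1 and 2 and 106 and 92.3 on LM replicates 1 and 2. Cul3 itself, read by its brightest probe set, had signals of 5380 and 5577 on the KO arrays against 5333 and 5724 on the LM arrays, a KO minus LM difference of -0.01 ± 0.09 (log2, SE, adjusted p = 0.994 by limma). Where the deleted exons lie relative to that probe set was not given in the sources used here, so the labels alone give the genotype, and higher or lower below means on the arrays labelled KO.

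Of the 9 genes, 8 were above background on at least 2 arrays and were tested, and 13 of the 16 probe sets were above it on all 4. None of the 8 differed between the genotypes at an adjusted p of 0.05 by limma, where 0.275% of all 11255 genes tested did. At an unadjusted p below 0.05 there was 1, Sh2d1a, against 8.4% of all genes tested. The KO and LM arrays did not overlap for 1 of the 8, again Sh2d1a, where 37.4% of all genes tested did not overlap. Among the probe sets fitted one by one, 0 of 14 passed the threshold and 1 lay at an unadjusted p below 0.05, beside 0.229% and 7.97% of the 21795 probe sets tested. The groups did not overlap for 3 of the 14, beside 36.7% of all probe sets tested. The fitted difference was above 0 for 2 of the 8 genes, as it was for 50.3% of all genes tested, and below 0 for 6. Their median was -0.14 on the log2 scale, beside 0.00 over all genes tested, and the median size of the difference, without its sign, was 0.24, beside 0.17 over all genes tested. With the first KO array left out the median of the SLAM-SAP genes was 0.00, and with the second LM array left out it was -0.25. In RNA from sorted populations, fewer cells that express a gene and less of its RNA per cell cannot be told apart.

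**Figure D1:**
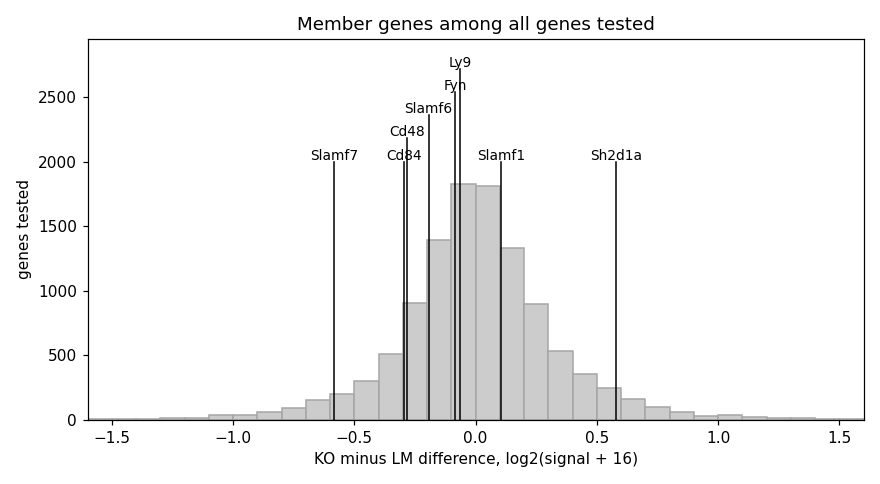
Histogram of the fitted KO minus LM differences of all 11255 genes tested, on the log2(signal + 16) scale, with the number of genes per bin on the vertical axis and a vertical line for each of the 8 tested SLAM-SAP genes. Genes beyond the plotted range are not drawn. Sh2d1a lies at 0.58, and 9.01% of the genes tested had a larger difference in either direction, while Fyn, Ly9 and Slamf1 lie near the centre.

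Sh2d1a, which encodes SAP, had signals of 1514 and 1431 on the KO arrays, against 968 and 1002 on the LM arrays. Both KO arrays lay above both LM arrays, and the arrays of each genotype lay close together. After normalization the level was 10.54 ± 0.05 on the KO arrays and 9.96 ± 0.04 on the LM arrays (log2 of signal plus 16, mean ± SD, n = 2 each). The difference was 0.58 ± 0.17 (log2, SE), a 1.49-fold higher level on the KO arrays, and it did not pass the threshold (limma adjusted p = 0.287, unadjusted p = 0.00443). Ordered by p-value, Sh2d1a was number 174 of the 11255 genes tested. Its 95% interval ran from 116% to 192% of the LM level, before any adjustment for the number of genes. Leaving out any 1 array gave differences from 0.55 to 0.61, and over all 14 alternative settings the adjusted p ran from 0.143 to 0.553. Only 1 probe set reads Sh2d1a, so no second probe set of the gene could be set beside it.

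Markers of other T cell subsets were read on the same arrays. The summed signal of the 6 listed regulatory T cell markers was 16380 and 14473 on the KO arrays and 10984 and 11322 on the LM arrays, and without Izumo1r, the brightest of them, 8674 and 7383 on the KO arrays and 6125 and 6300 on the LM arrays. All 6 had a positive fitted difference, and 1, the folate receptor family member Izumo1r, rose at the threshold (0.58 ± 0.09, limma adjusted p = 0.0213). Of all genes tested 0.275% were called in either direction. Izumo1r was not called with median centring (0.53), without the filter on dim genes, without the intensity trend, or without the first KO array (0.54, adjusted p = 0.0698). Il2ra, the gene of the CD25 chain absent from the sorted cells' surface, differed by 0.72 and the Ikaros family factor Ikzf2 by 0.49, and neither passed (limma adjusted p = 0.221 and 0.245). The groups overlapped for Foxp3, the defining factor of the lineage, which differed by 0.48 (adjusted p = 0.804). For the 5 listed follicular helper markers the summed signal was 6116 and 5704 on the KO arrays and 5442 and 5412 on the LM arrays. Of these, the inhibitory receptor Pdcd1 differed by 0.84 (adjusted p = 0.347) and the cytokine Il21 by 0.64 (adjusted p = 0.455), while the defining receptor gene Cxcr5 stayed under background on all 4 arrays. The groups overlapped for the other tested markers of this list, the costimulatory receptor Icos, which made up most of the summed signal and differed by -0.06, and the repressor Bcl6, which differed by 0.29. Of the 3 gamma delta T cell markers with a named probe set, the summed signal was 728 and 749 on the KO arrays and 782 and 649 on the LM arrays, with Maf at 0.34 and Sox13 at -0.26. The part of these cell types in the Sh2d1a difference was not tested.

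The genes whose pattern over the 4 arrays came nearest to that of Sh2d1a were found from log2 levels centred on each gene's mean, by root mean square distance. They were the bone morphogenetic protein receptor Bmpr2 (distance 0.017), Izumo1r (0.034) and Vash2 (0.034), a vasohibin. Bmpr2 had signals of 634 and 634 on the KO arrays and 426 and 419 on the LM arrays, a log2 difference of 0.57. That value belongs to its brightest probe set, and the mean of all its probe sets gave 0.058 (adjusted p = 0.984). Vash2 was above background on both KO arrays and 1 of 2 LM arrays and differed by 0.55. Neither Bmpr2 nor Vash2 passed the threshold (limma adjusted p = 0.427 and 0.793). The likeness rests on 4 arrays and is a description of them.

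**Figure D2:**
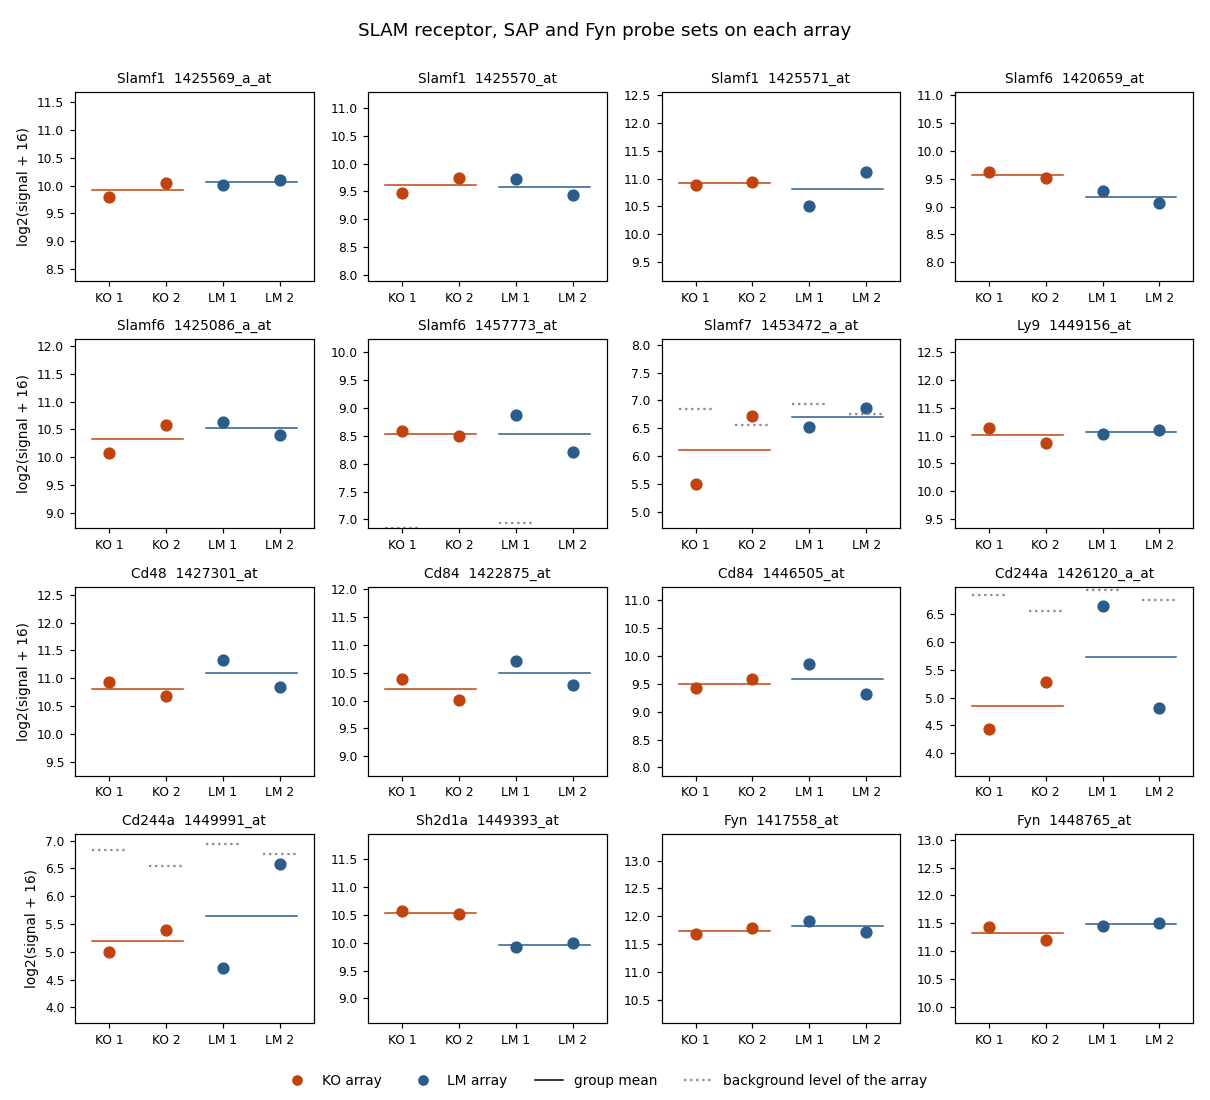
Level of each of the 16 probe sets on every array, as log2(signal + 16) after quantile normalization, with KO arrays at the left and LM arrays at the right of each panel, lines for the group means and dotted marks for the array's background level. Every panel spans the same range of log2 units. Sh2d1a and the Slamf6 probe set 1420659_at have both KO points above both LM points, and the Cd244a points lie under the background marks.

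Fyn, the kinase that SAP couples to SLAM receptors and that also acts in T cell receptor signalling, had signals of 3253 and 3462 on the KO arrays against 3779 and 3418 on the LM arrays by its brightest probe set. The groups overlapped, with the lowest and the next to highest values on the KO arrays. The difference was -0.08 ± 0.12 (log2, SE, limma adjusted p = 0.920), and the 95% interval ran from 78.4% to 113% of the LM level. A second Fyn probe set read 2754 and 2330 on the KO arrays and 2770 and 2973 on the LM arrays. Both KO values were the lower ones there, the first by a narrow margin, and the difference was -0.17 (adjusted p = 0.845 over probe sets), which was -0.055 without the second KO array and -0.28 without the first.

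Among the receptors, Slamf1, a self-binding receptor also known as CD150, showed no common direction across its 3 probe sets. The brightest, 1425571_at, had signals of 1894 and 1934 on the KO arrays and 1434 and 2219 on the LM arrays. Both KO values lay between the LM values. The difference of 0.10 ± 0.19 (log2, SE, limma adjusted p = 0.944) was -0.20 without the first LM array and 0.41 without the second. The other probe sets differed by -0.14 (1425569_a_at) and 0.03 (1425570_at). For 1425569_a_at the difference was -0.017 without the first KO array and -0.26 without the second. The interval of the brightest ran from 80.6% to 143% of the LM level.

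Slamf6, known in the mouse as Ly108 and expressed as several splice forms, was the receptor whose probe sets disagreed most. Probe set 1420659_at had signals of 761 and 713 on the KO arrays against 616 and 506 on the LM arrays. Both KO values were above both LM values, and the difference was 0.39 ± 0.21 (log2, SE, limma adjusted p = 0.694 over probe sets). The brightest probe set, 1425086_a_at, read 1059 and 1507 on the KO arrays and 1571 and 1340 on the LM arrays. Here the KO values were the lowest and the next to highest, with a difference of -0.19 ± 0.20 (adjusted p = 0.873 over genes). The third, 1457773_at, had KO signals of 362 and 351 between the LM signals of 464 and 268, and a difference of 0.00. Within an array, the log2 ratio of 1420659_at to 1425086_a_at was -0.46 and -1.07 on the KO arrays and -1.36 and -1.34 on the LM arrays. The ratio was higher on both KO arrays, and the KO arrays lay 0.61 log2 units apart against 0.01 for the LM arrays. A permutation test of 2 against 2 arrays cannot give a two-sided p below 0.333, and which splice form each probe set reads is not given in the sources used here.

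Ly9, a self-binding receptor with the most extracellular immunoglobulin domains of the family, had signals of 2261 and 1830 on the KO arrays against 2061 and 2190 on the LM arrays. The KO arrays gave both the highest and the lowest value. The difference was -0.06 ± 0.15 (log2, SE, limma adjusted p = 0.964), with an interval of 76.4% to 120% of the LM level, and it was 0.08 without the second KO array.

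**Figure D3:**
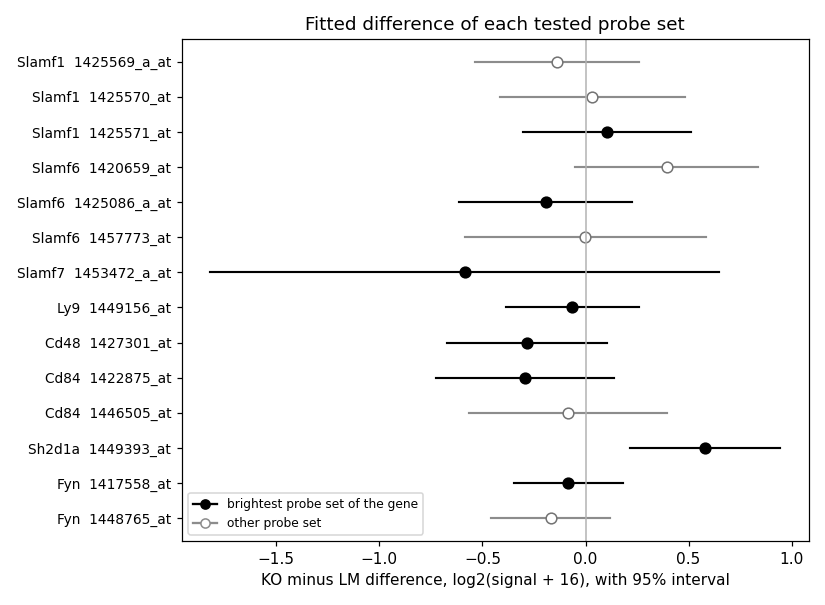
KO minus LM difference of each of the 14 tested probe sets on the log2(signal + 16) scale, from the fit across all probe sets, with bars for the 95% intervals before adjustment, filled points for the brightest probe set of a gene and open points for the others. The interval of Sh2d1a lies above 0, the other 13 cross 0, and the 3 Slamf6 probe sets lie at 0.39, -0.19 and 0.00.

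Cd48 and Cd84 gave the lowest fitted differences among the receptors measured on every array. Cd48 is the lipid-anchored ligand of Cd244a and also binds Cd2, and Cd84 is a self-binding receptor that docks SAP. Cd48 had signals of 1952 and 1602 on the KO arrays and 2539 and 1828 on the LM arrays. Cd84, by its brightest probe set, had 1325 and 1012 on the KO arrays and 1657 and 1231 on the LM arrays. The order of the arrays was the same for both genes: the first LM array was highest, followed by the first KO array, the second LM array and the second KO array, so the groups overlapped. The differences were -0.28 ± 0.18 for Cd48 and -0.29 ± 0.20 for Cd84 (log2, SE, limma adjusted p = 0.765 and 0.786). Without the first LM array they were -0.03 and -0.08, and without the second LM array -0.53 and -0.51. The second Cd84 probe set, 1446505_at, did not share this order: it read 665 and 754 on the KO arrays and 922 and 616 on the LM arrays, a difference of -0.08 that ran from -0.35 to 0.18 with 1 array left out.

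Because Cd48 and the brightest Cd84 probe set, though not the second, ranked the arrays alike, their promoter windows are shown, a choice made after their values were seen. Each window holds 300 bases, 250 before and 50 after a RefSeq transcript start in build GRCm38.p6, from chr1:171681742-171682041 (plus strand) for Cd48 and chr1:171839447-171839746 (plus strand) for Cd84. Capitals mark matches to TGTGGT, the core bound by RUNX factors, which act in CD4 and CD8 lineage choice.
Cd48: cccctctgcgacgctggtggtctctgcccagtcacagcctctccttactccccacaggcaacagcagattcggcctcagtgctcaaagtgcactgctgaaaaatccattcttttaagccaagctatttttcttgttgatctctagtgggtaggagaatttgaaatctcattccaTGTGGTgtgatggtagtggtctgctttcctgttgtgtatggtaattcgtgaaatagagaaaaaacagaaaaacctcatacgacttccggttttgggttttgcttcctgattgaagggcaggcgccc
Cd84: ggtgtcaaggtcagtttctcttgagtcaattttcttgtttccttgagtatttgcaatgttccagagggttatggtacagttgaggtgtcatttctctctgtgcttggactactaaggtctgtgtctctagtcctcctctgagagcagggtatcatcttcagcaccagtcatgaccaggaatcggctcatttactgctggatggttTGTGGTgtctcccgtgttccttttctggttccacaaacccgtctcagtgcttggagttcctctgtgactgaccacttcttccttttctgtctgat
Promoter windows were found for 7 of the 9 genes, all but Ly9 and Sh2d1a. The windows of Cd48, Cd244a and Slamf7 lie inside the RefSeq span of the gene, which begins upstream of them. Searched on both strands, TGTGGT occurred in 2 of these 7, Cd48 and Cd84, and in 16.8% of all 32851 promoter windows. The core bound by MYB, AACNG, occurred in 7 of 7 and in 80.3% of all windows. The core bound by BCL6, a transcription factor that works with Cul3, was searched as TTCCTNGAA and occurred in 0 of 7 and in 1.59% of all windows. The motifs were allowed to overlap, and a match to these letters is no measurement of binding. A link between the matches and the order of the arrays was not tested. The motifs were chosen after the first values were seen, and the one in capitals after its matches were known.

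Slamf7 and Cd244a, receptors best known from NK cells, lay at or below background. Slamf7 had signals of 29.9 and 96.1 on the KO arrays and 76.9 and 93.1 on the LM arrays, above background on 1 of 2 arrays in each group. Its difference of -0.58 ± 0.57 (log2, SE, limma adjusted p = 0.869) was -1.20 without the second KO array and 0.03 without the first, and the interval of 28.2% to 158% of the LM level was the widest among the SLAM-SAP genes. The Cd244a probe sets were below background on all 4 arrays and were not tested. Probe set 1449991_at read 16.3 and 28.1 on the KO arrays against 9.9 and 72.9 on the LM arrays, and 1426120_a_at read 5.7 and 24.8 on the KO arrays against 86.4 and 11.2 on the LM arrays. Of the 8 listed NKT and NK cell markers with a named probe set, 4 (Ncr1, Nkg7, Tbx21 and Eomes) were too dim to be tested, and the summed signal of the 8 was 1596 and 1520 on the KO arrays and 1348 and 1269 on the LM arrays. Without Il2rb the other 7 summed to 513 and 515 on the KO arrays and 512 and 524 on the LM arrays. Of the 4 tested, Il2rb and Gzma had positive differences (0.40 and 0.59) and Zbtb16 and Klrd1 negative ones (-0.49 and -0.22). Gzma was above background on the KO arrays alone and entered the test through them, so its difference uses LM values below background. Klrd1 was above background on 1 of 2 arrays in each group.

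**Figure D4:**
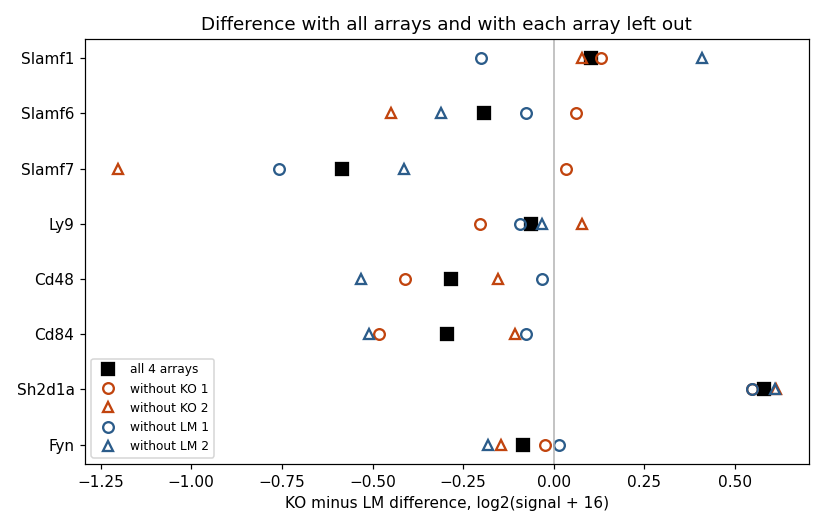
KO minus LM difference of the 8 tested SLAM-SAP genes on the log2(signal + 16) scale, with all 4 arrays (squares) and with each array left out in turn (open symbols). Sh2d1a stays between 0.55 and 0.61, whereas Slamf1, Slamf6, Slamf7, Ly9 and Fyn have values on both sides of 0.

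The receptor genes lie side by side on mouse chromosome 1, in the order Cd244a, Ly9, Slamf7, Cd48, Slamf1, Cd84 and Slamf6, while Fyn is on chromosome 10 and Sh2d1a on chromosome X. The listed neighbours were the protein-coding genes of the RefSeq table between these receptors and the nearest 10 on either side. Of 21 neighbours, 16 had a named probe set and 12 were tested. None of the 12 passed the threshold by limma with all arrays, where 0.275% of all genes tested did. Copa, a coatomer subunit of Golgi transport vesicles and 4 genes beyond Slamf6, was the one at an unadjusted p below 0.05. Of all genes tested 8.4% lay there. It had signals of 2726 and 2562 on the KO arrays and 4136 and 3034 on the LM arrays, a difference of -0.42 ± 0.16 (log2, SE, adjusted p = 0.464). Copa differed by -0.68 without the second LM array and by -0.16 without the first. The median over the 12 neighbours was -0.02, and their differences ran from -0.42 to 0.65.

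**Figure D5:**
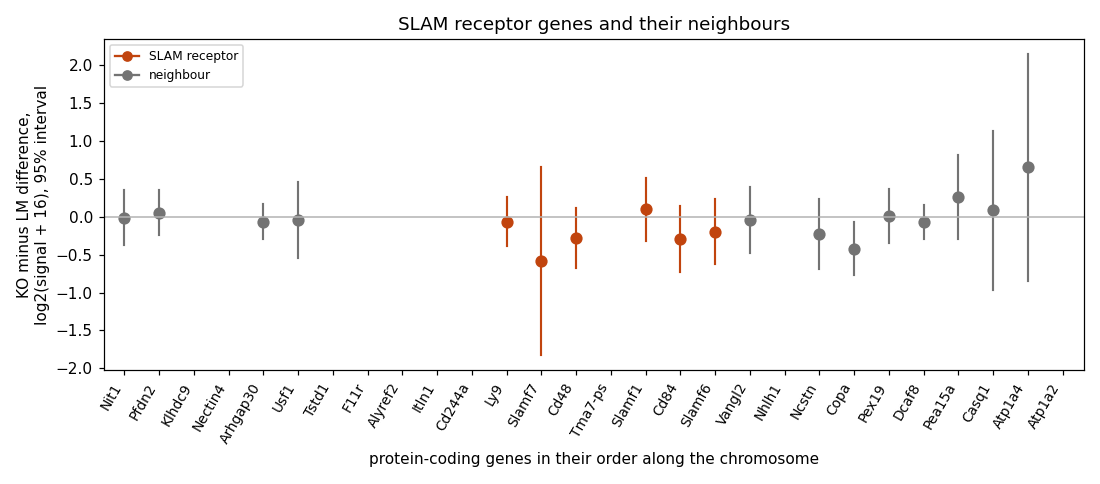
KO minus LM difference with its 95% interval, on the log2(signal + 16) scale, for the SLAM receptor genes and their tested neighbours, placed by their order along the chromosome and not by distance. Genes without a point had no named probe set or were too dim to be tested. Among the plotted genes the interval of Copa alone lies off 0.

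The listed signalling partners of the SLAM-SAP pathway also gave no call, where 0.275% of all genes tested were called. Of 21 partners, 17 had a named probe set and 15 were tested, with 8 fitted differences above 0, 7 below 0, and a median of 0.01. At an unadjusted p below 0.05 there were 0 of 15 by limma, beside 8.4% of all genes tested. The list held the phosphatases Ptpn6 and Ptpn11 and the lipid phosphatase Inpp5d, which bind SLAM receptor tails, and Prkcq, Bcl10 and Malt1, which act downstream of SAP and Fyn on NF-kappaB. The differences ran from -0.23 for the adaptor Nck1 to 0.37 for the adaptor Dok2. The remaining SLAM family genes of this list, Slamf8 and Slamf9, were too dim to be tested.

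Among Src family kinases, 5 of 8 had a named probe set and 3 were tested. Yes1 had signals of 186 and 90.9 on the KO arrays and 12.6 and 39.2 on the LM arrays. It was above background on both KO arrays and below it on both LM arrays. With each LM array taken at its background level, the mean of the KO arrays was at least 1.25-fold higher (limma adjusted p = 0.407). That bound rests on the first KO array, at 7.67 (log2). The second, at 6.66, lay below the LM background levels of 6.94 and 6.76. Yes1 entered the test through the KO arrays alone, and the fit used LM values below background. Fgr, the other tested kinase beside Fyn, differed by 0.86 (adjusted p = 0.677) and was above background on both KO arrays and 1 of 2 LM arrays.

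The listed genes of innate-like T cells, Myb and Tcf12 among them, gave no call with all arrays either, beside 0.275% of all genes tested. Of the 15 listed, 11 were tested, with a median of 0.04. Zbtb16, which encodes PLZF, had signals of 119 and 111 on the KO arrays against 164 and 158 on the LM arrays. Both KO values were lower, and the difference was -0.49 (limma adjusted p = 0.806). Egr2, which is needed upstream of PLZF in NKT cell development, differed by -0.10 (adjusted p = 0.879). The adhesion receptor Cd44 had signals of 660 and 750 on the KO arrays and 308 and 457 on the LM arrays. Its difference was 0.89 ± 0.24 (adjusted p = 0.262) with all arrays. It was 1.20 without the second LM array and 0.58 without the first. Il2rb, a chain of the interleukin-2 and interleukin-15 receptors, had 1083 and 1006 on the KO arrays and 836 and 745 on the LM arrays, a difference of 0.40 (adjusted p = 0.584). Il4, Tbx21 and Eomes were below background on all arrays.

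Markers of other cells were read on the same arrays. Of the tested ones outside the regulatory T cell list 0 were called, beside 0.275% of all genes tested. All 4 listed mast cell and granulocyte markers were too dim to be tested, as were the B cell genes Cd79b, Ms4a1 and Pax5 and the myeloid genes Itgam, Itgax, Cd14 and Flt3. Of the 8 myeloid and dendritic cell markers 4 were tested, 1 with a positive and 3 with a negative difference and a median of -0.28. The positive one was Cst3, a protease inhibitor gene that many cells express, at 0.51 (limma adjusted p = 0.416), or 0.33 without the first LM array. The negative ones were Csf1r at -0.67, Siglech at -0.40 and Lyz2 at -0.17. These lay near background: Csf1r and Lyz2 were above it on 1 of 2 arrays in each group, and Siglech on 1 of 2 KO arrays and both LM arrays. Of the 7 tested double-positive thymocyte markers 6 had a positive difference, with a median of 0.14 and summed signals of 8424 and 8438 on the KO arrays and 7412 and 8336 on the LM arrays. The part of these cells in the SLAM-SAP values was not tested.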

How the data were processed

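The values the authors deposited are signal intensities on a linear scale, 1 for each probe set on each array. They had been scaled before deposit: trimmed by 2% at each end, every array had a mean of 500.0. RNA was extracted with Trizol and amplified with the WT-Ovation Pico system, per the labels' protocols. The program that summarised the probes and its background correction are not stated in the labels or the file.

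The 64 control probe sets were left out, and probe sets with several gene symbols (932) or none (9160) were not named. Values were transformed to log2(value + 16), a scale on which changes of dim genes come out too small, and quantile normalized. A gene was represented by its brightest probe set and tested if above background on at least 2 arrays. Background was set, on each array, at the 95th percentile of the 80 probe sets for olfactory or vomeronasal receptors. KO minus LM differences were fitted over all genes, and separately over all probe sets, with limma 3.58.1 in R 4.3.3 (lmFit, eBayes with an intensity trend, no covariate). Tests were two-sided, with Benjamini-Hochberg adjustment over everything tested and a threshold of 0.05. The number of arrays limits the precision, with a median standard error of 0.22 (log2) over all genes. The fit was run on data simulated from its own fitted variances, a check of the code and not of these arrays. Tables and plots used Python 3.11.15, pandas 2.3.3 and matplotlib 3.10.9.

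The SLAM-SAP genes, the lists and the tests were chosen with earlier results of these data known. The genes named are all 9 SLAM-SAP genes, Cul3, the 3 genes nearest to Sh2d1a in pattern, and each listed gene at an unadjusted p below 0.05. Other listed genes named were chosen after their values were seen. Alternatives were other normalizations, pseudocounts, filters and variance moderation, the mean of all probe sets, the replicate number as a block, and each array left out.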

Additional observations from a re-analysis of the deposited data

How the results depend on the processing

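The count of SLAM-SAP genes past the threshold was 0 under each of the 14 alternatives, and that of SLAM-SAP probe sets was 0 under each of the 13 run on single probe sets, also with each array left out (0 to 0 for both). Of 111 alternative values for the 8 tested genes, 104 kept their direction and 7 reversed. The filters, the variance moderation and the replicate block leave a fitted difference unchanged. Values under those settings could not reverse and say nothing about direction. Over all genes, 31 were called, against 81 with median centring, 0 with no filter on dim genes and 0 with eBayes without the trend, where 1247 and 922 genes lay at an unadjusted p below 0.05 in limma, and 40 to 97 with 1 array left out. Over all probe sets 50 were called, against 98, 2 and 0 under the same 3 settings and 121 to 254 with 1 array left out. Slamf7 was too dim to be tested with the stricter filter. The median of the SLAM-SAP genes ran from -0.25 to 0.0044 with 1 array left out and moved by less than its replicate SD of 0.09 otherwise. Averaging the probe sets of a gene reversed Slamf1 (-0.00047), Slamf6 (0.066) and Cul3 (0.041). Without the first KO array Slamf6 was 0.061, Slamf7 0.033 and Cul3 0.032, without the second KO array Ly9 was 0.077, and without the first LM array Slamf1 was -0.20 and Fyn 0.014. With 1 array left out, the ranges were -0.20 to 0.41 for Slamf1, -0.45 to 0.061 for Slamf6, -1.20 to 0.033 for Slamf7, -0.20 to 0.077 for Ly9, -0.18 to 0.014 for Fyn and -0.053 to 0.032 for Cul3. The Slamf1 probe set 1425570_at reversed with median centring (-0.022) and ran from -0.11 to 0.17 with 1 array left out. The Slamf6 probe set 1457773_at, at 0.00, was 0.013 without normalization between arrays and 0.00080 with a pseudocount of 1, and ran from -0.34 to 0.33 with 1 array left out, and the Cd84 probe set 1446505_at ran from -0.35 to 0.18. The cause of these reversals was not tested. Same-numbered arrays did not deviate together (correlation -0.02 over the genes tested), so the replicate numbers were not taken as pairs. With the replicate number as a block 43 genes were called, 0 of them SLAM-SAP genes, and Sh2d1a had a limma adjusted p of 0.284. The block is balanced over the genotypes, so it can change standard errors and p-values only. The difference of Sh2d1a (0.58) and the median of the SLAM-SAP genes (-0.14) stayed the same for that reason.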
